A study of Homo sapiens with 2 samples.

Results

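Claudins are membrane proteins with both ends in the cytoplasm that join neighbouring epithelial cells into tight junctions, where they either seal the space between cells or form channels for selected ions. Occludin sits in the same strands, and the scaffold ZO-1 ties both to the actin cytoskeleton. In the liver these junctions close the bile canaliculi between hepatocytes and keep bile apart from blood. The 10 genes described here were chosen by name: CLDN1, CLDN2, CLDN4, CLDN6, CLDN9, CLDN12, CLDN14, CLDN15, OCLN (occludin) and TJP1 (ZO-1). They are 10 of the 34237 genes that had a matched transcript. A gene's level is its summed TPM, that is, the abundance of its transcripts per length, scaled to the same total in each library.

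Polyadenylated RNA was sequenced from HepG2, an established human liver cancer line, into which a cassette had been placed that expresses SAMD4B once doxycycline (Dox) is added. SAMD4B belongs to the Smaug family of RNA-binding proteins, first described in the fly. One group was grown without Dox (uninduced) and the other with Dox at 1 µg/ml for 48 h (induced). The title of the uninduced sample gives no culture time. Both groups carry the cassette. The treatment protocol in the labels is written alike for both samples and names Dox, so the groups here follow the sample titles. Each group is 1 library, so no test of the treatment was possible and every difference below is between 2 libraries. Whether the line is 1 clone is not given in the sources used here. HepG2 cells given Dox without the cassette were not analysed here, so effects of Dox and of SAMD4B cannot be told apart. SAMD4B stood at 47.5 TPM uninduced and 261 induced, the direction its labels give. Estimated depths were 18218720 and 23621566 fragments. In bulk RNA, fewer cells with a transcript and less of it per cell cannot be told apart.

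The hepatocyte label was checked on 10 marker genes, and all 10 passed the filter of a mean TPM of at least 1. AFP, the fetal albumin-like protein, was at 13406 TPM uninduced and 12140 induced, and TF, transferrin, at 3237 and 2722. Their summed TPM was 26272 and 24390, and none of the 10 differed by 1.5-fold, with 3 higher and 7 lower. Nearest to that line was KRT18, a keratin of simple epithelia looked up after the values were seen, at 582 and 871 TPM (log2 fold change 0.58, fragment ratio 1.45, 1.42 to 1.49). Of 16 markers of other cell types, 8 passed the filter, with summed TPM over all 16 of 290.1 uninduced and 254 induced. The 3 defining markers PTPRC (leukocytes), VWF (endothelium) and KRT7 (bile duct) were listed at 0 in both libraries. Other markers of these cell types, looked up after the values were seen, passed the filter. CD68 and CD14 (leukocytes) were at 10.7 and 11.3 TPM and at 1.53 and 1.64. PECAM1 (endothelium) was at 4.57 and 4.55 TPM and KRT19 (bile duct) at 22.8 and 26.6, while CDH5 (endothelium) was at 0 and 0.09. ACTA2, the smooth muscle actin, was at 61.3 and 36.7 TPM, and PDGFRB, a growth factor receptor of stromal cells, at 4.11 and 7.35. EPCAM, a marker of progenitor cells, was at 94.2 and 76.9 TPM, and SOX9, found in bile ducts, at 90.1 and 88.7. The part of these markers in the junction results was not tested.

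Claudins share a signature in the first extracellular loop, the part that seals the gap or lines the pore: a tryptophan, a run of glycine, leucine and tryptophan, and a pair of cysteines. In GENCODE release 29 coding sequences (GRCh38), a search for this pattern found it in all 8 claudin members, in 22 of 24 claudin genes, and in 0.139% of 19474 protein-coding genes. In CLDN15 it was found because asparagine was also accepted in place of glycine. The stretches of 5 members are shown 5′ to 3′ on the coding strand, with the signature codons in capitals, since they set the most abundant claudin (CLDN12) and those with the largest differences (CLDN4 and CLDN1) beside the near-identical CLDN6 and CLDN9.
CLDN12, chr7:90412773-90412877, plus strand: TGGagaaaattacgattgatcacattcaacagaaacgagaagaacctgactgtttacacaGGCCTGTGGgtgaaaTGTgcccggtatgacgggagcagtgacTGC
CLDN4, chr7:73831289-73831393, plus strand: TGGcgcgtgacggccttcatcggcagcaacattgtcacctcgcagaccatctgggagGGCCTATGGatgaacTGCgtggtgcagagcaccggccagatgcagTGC
CLDN1, chr3:190322015-190322119, minus strand: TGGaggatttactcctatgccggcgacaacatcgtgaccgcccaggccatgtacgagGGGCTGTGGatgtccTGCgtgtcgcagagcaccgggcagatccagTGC
CLDN6, chr16:3015830-3015934, minus strand: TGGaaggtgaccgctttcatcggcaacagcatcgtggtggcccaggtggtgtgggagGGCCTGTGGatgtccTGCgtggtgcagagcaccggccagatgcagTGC
CLDN9, chr16:3013450-3013554, plus strand: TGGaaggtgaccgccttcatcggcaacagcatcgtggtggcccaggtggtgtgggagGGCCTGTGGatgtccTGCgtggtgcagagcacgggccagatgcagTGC
Over these 105 bases CLDN6 and CLDN9 differed at 2 positions, CLDN4 and CLDN6 at 22, CLDN1 and CLDN4 at 30, and CLDN12 and CLDN4 at 73. Over the whole coding sequence CLDN6 and CLDN9 were 78.6% identical, with a longest identical run of 74 bases in the alignment, and CLDN4 and CLDN9 were 72.1% identical. Only fragments wholly inside such a run fit both genes alike, and longer ones cover bases that differ. How far this affects the split between CLDN6 and CLDN9 was not tested.

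The cytoplasmic end of a claudin binds the PDZ domains of ZO-1, and most claudins end in tyrosine and valine for this. The last 2 codons before the stop were TAC or TAT and then GTN in 7 of the 8 claudin members. The same held in 14 of 24 claudin genes and in 0.262% of the 19474 protein-coding genes. CLDN12 was the exception. The ends of 3 coding sequences, stop codon included and with the last 2 amino acid codons in capitals, show the difference.
CLDN4, chr7:73831802-73831831, plus strand: cgctctgctgctgccagcaacTACGTGtaa
CLDN1, chr3:190308277-190308306, minus strand: gcaccttccagcgggaaagacTACGTGtga
CLDN12, chr7:90413382-90413411, plus strand: gacattccagtagtttcacacACCACTtaa
CLDN12, which lacks this ending, was also the most abundant claudin in both libraries.

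Of the 10 members, 8 reached a mean TPM of at least 1 and were compared on log2((TPM with Dox + 1)/(TPM without Dox + 1)), a scale that understates differences of low genes. With Dox, CLDN4 and TJP1 passed 1.5-fold on the higher side, and CLDN1 and CLDN15 on the lower. Of all 11582 genes compared, 5.32% were higher and 3.90% lower by that much. The members went 4 up and 4 down, with a median of 0.05 on the log2 scale, beside 0.02 for all genes compared. The median of the members changed sign with the measure: it was -0.05 on estimated fragments and -0.14 without transcripts listed at 0 in 1 library and at 1 TPM or more in the other. In the latter setting CLDN2 alone had another value, because its main transcript with Dox was removed. At a fold of 2, CLDN4 alone passed, as did 1.62% of all genes on the higher side and 0.967% on the lower. Ratios of estimated fragments per library depth, with exact 95% binomial intervals, were had for the same 8 members. The interval lay above 1 for 4 of them (24.5% of 9786 genes) and below 1 for 3 (29.0%), and it held 1 for CLDN6. These intervals cover counting error only, not the spread between cultures. The counting intervals of TPM given below scale a gene's TPM by its total estimated fragments. They are too narrow where a short transcript holds much TPM on few fragments, as in TJP1, CLDN12 and OCLN.

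**Figure D1:**
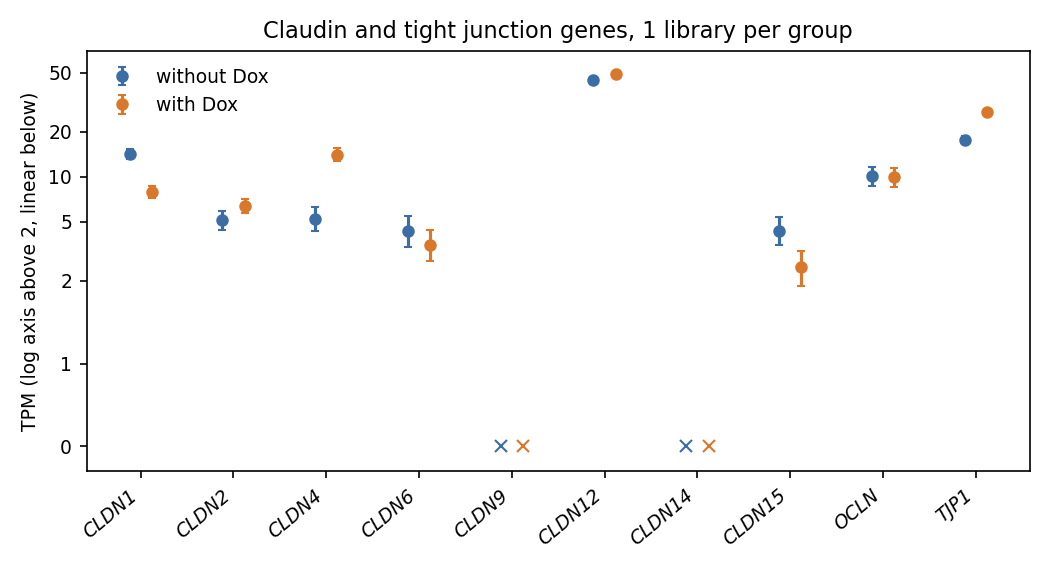
TPM of the 10 genes (vertical axis, logarithmic above 2 and linear below) without Dox (blue) and with Dox (orange), 1 library each. Bars scale each TPM by the exact 95% Poisson interval of the gene's total estimated fragments, and crosses mark genes listed at 0. CLDN4 is at 5.22 and 14.0 TPM and CLDN1 at 14.3 and 7.94, so the pair exchange order, while CLDN12 is highest in both libraries.

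CLDN4 (ENSG00000189143, chromosome 7, 73799542 to 73832693, GRCh38), a claudin that tightens many epithelia and is a receptor for a Clostridium enterotoxin, had the largest difference. It was at 5.22 TPM uninduced (counting interval 4.32 to 6.24) and 14.0 induced (12.7 to 15.5), a log2 fold change of 1.27. The library with Dox was the higher one and the counting intervals did not overlap. The fragment ratio was 2.64 (interval 2.15 to 3.27), from 119 and 408 estimated fragments. Of the genes compared, 99.1% had a smaller log2 fold change. Nearly all of CLDN4 was on ENST00000340958, its transcript of a single exon, at 5.19 and 13.5 TPM. ENST00000435050, which starts upstream, was listed at 0 without Dox and at 0.31 TPM with Dox.

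CLDN1 (ENSG00000163347, chromosome 3, 190305701 to 190322475), a sealing claudin of hepatocytes that also serves hepatitis C virus as an entry factor, differed the other way. It was at 14.3 TPM uninduced (13.2 to 15.4) and 7.94 induced (7.24 to 8.69), a log2 fold change of -0.77. The fragment ratio was 0.56 (interval 0.49 to 0.63), from 649 and 470 estimated fragments, and 1.81% of the genes compared had a lower log2 fold change. Its coding transcript ENST00000295522 held 96.7% of the TPM uninduced and all of it induced. With CLDN4 higher and CLDN1 lower, the ratio of CLDN4 to CLDN1 TPM was 0.36 uninduced and 1.77 induced.

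CLDN15 (ENSG00000106404, chromosome 7, 101232092 to 101238820), a claudin that forms cation channels in the intestine, was at 4.33 TPM uninduced (3.48 to 5.32) and 2.49 induced (1.94 to 3.16). Its log2 fold change was -0.61 and its fragment ratio 0.58, with a wide interval of 0.42 to 0.81 because only 90 and 68 fragments were estimated. The 4 transcripts of CLDN15 above 0 were each lower with Dox. The most abundant, ENST00000401528, was at 1.95 and 1.29 TPM, and ENST00000308344 at 1.28 and 0.52.

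CLDN2 (ENSG00000165376, chromosome X, 106900164 to 106930861), which forms a channel for cations and water, was at 5.09 TPM uninduced (4.41 to 5.84) and 6.38 induced (5.69 to 7.12). The counting intervals overlapped, the log2 fold change was 0.28 and the fragment ratio 1.20 (1.00 to 1.44). The transcripts behind this sum exchanged places. ENST00000336803 was at 5.09 TPM uninduced and 0.84 induced, whereas ENST00000540876 was listed at 0 without Dox and at 5.54 TPM with Dox. Both have the coding exon 2 in common and differ in the untranslated first exon, of 148 bases at 106920404 to 106920551 in the former and 110 bases at 106918360 to 106918469 in the latter. The split therefore rests on the few fragments that touch a first exon. If ENST00000540876 is left out as an all-or-none transcript, the log2 fold change of CLDN2 turns to -1.73. That step removes 270 of the 311 fragments estimated with Dox and none without Dox. The lower value follows from the removal and does not test the direction of the summed TPM.

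CLDN12 (ENSG00000157224, chromosome 7, 90383721 to 90513402) was the most abundant member, at 44.5 TPM uninduced (42.5 to 46.7) and 49.0 induced (47.2 to 50.9). Its log2 fold change was 0.13 and its fragment ratio 1.18 (1.11 to 1.25), under the 1.5-fold line. The counting intervals of TPM did not overlap, but only narrowly (46.7 and 47.2), and they are too narrow for this gene. Of its 15 transcripts, ENST00000287916 held 65.2% of the TPM uninduced and 73.3% induced, and ENST00000394605 16.0% and 18.2%. The short ENST00000496677 was at 4.15 and 1.12 TPM. Taken over all its transcripts, the exons of CLDN12 share 347 bases with the neighbouring gene GTPBP10, which was at 24.7 and 21.5 TPM. They share 201 bases with CDK14 (5.59 and 6.04 TPM), 276 with PTTG1IP2 (0 in both) and 371 with ENSG00000273299 (no value). All of these are on the same strand, so reads in the shared stretches could belong to either gene. Which CLDN12 transcripts carry the shared bases was not examined.

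CLDN6 (ENSG00000184697, chromosome 16, 3014712 to 3020071, minus strand), a claudin of embryonic epithelia that returns in some tumours, was at 4.31 TPM uninduced (3.35 to 5.46) and 3.48 induced (2.71 to 4.40). The intervals overlapped, and the fragment ratio of 0.78 had an interval of 0.55 to 1.11. Its exons share 40 bases with TNFRSF12A on the opposite strand, which was at 5.25 and 9.37 TPM. The neighbour CLDN9 (3012456 to 3014505, plus strand) was listed at 0 in both libraries on its only annotated transcript. CLDN14 (chromosome 21, 36460621 to 36576569), which is needed in the inner ear and acts in the kidney, was listed at 0 in both libraries on all 5 matched transcripts of 6 annotated. A listed 0 can also be an estimate that failed, so these values do not show absence.

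TJP1 (ENSG00000104067, chromosome 15, 29699367 to 29968865, minus strand), the scaffold that binds claudin tails, occludin and actin, was at 17.7 TPM uninduced (16.6 to 18.8) and 27.1 induced (25.9 to 28.3). Its log2 fold change of 0.59 lay on the 1.5-fold line, whose log2 is 0.58, and 94.8% of the genes compared had a smaller one. The fragment ratio was 1.56 (1.45 to 1.69), from 990 and 2005 estimated fragments. All 6 of its transcripts above 0 were higher with Dox. ENST00000614355 was at 3.91 and 6.69 TPM, ENST00000346128 at 1.83 and 3.56, and ENST00000545208 at 4.62 and 5.88. The short ENST00000400007, of 1032 bases, was at 7.07 and 10.4 TPM and so held 39.9% and 38.2% of the gene's TPM. One exon of 240 bases, which is known to code for the alpha region of ZO-1, was on 17.2% of the TPM that spans it without Dox and on 21.6% with Dox. Both values rest on 1 transcript with the exon, ENST00000346128.

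OCLN (ENSG00000197822, chromosome 5, 69492292 to 69558104), which codes for occludin, a membrane protein of the junction strands and another entry factor of hepatitis C virus, was at 10.1 TPM uninduced (8.72 to 11.6) and 9.89 induced (8.56 to 11.4). The log2 fold change was -0.03, but the fragment ratio was 0.80 (0.65 to 0.98). The measures differ because ENST00000538151, of 5391 bases, had 42 estimated fragments without Dox and was listed at 0 with Dox; its TPM of 0.56 weighs little in the sum. The coding ENST00000396442 was at 4.74 and 5.10 TPM. The non-coding ENST00000514370 was at 4.80 in both libraries and held 47.5% and 48.5% of the gene's TPM. That transcript rests on 47 and 59 estimated fragments, so the counting intervals of TPM are too narrow for OCLN. The ratio of OCLN to TJP1 TPM was 0.57 uninduced and 0.37 induced.

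**Figure D2:**
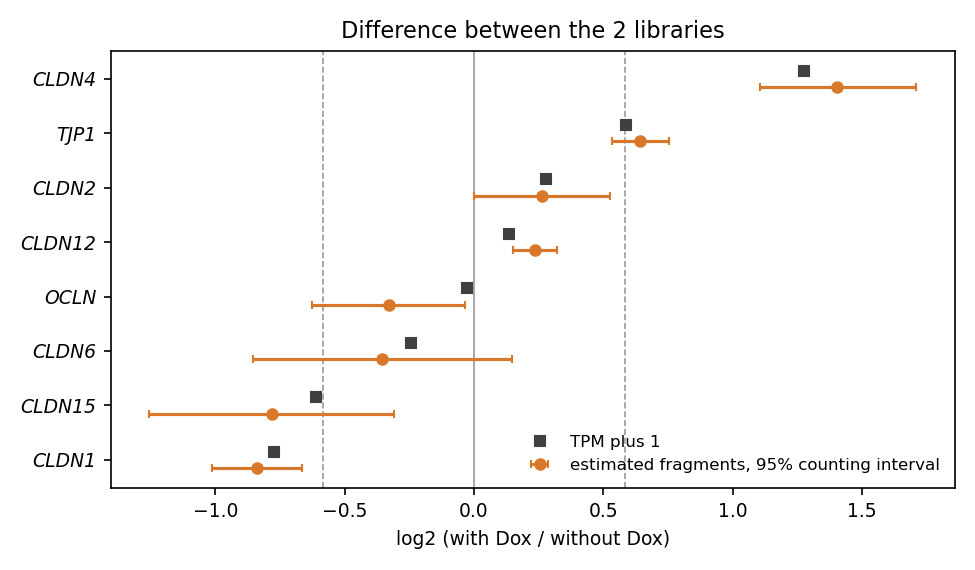
Log2 of the value with Dox over that without Dox for the 8 members compared, from TPM plus 1 (squares) and from estimated fragments with 95% counting intervals (circles); dashed lines mark a fold of 1.5. CLDN4 lies at 1.27 and CLDN1 at -0.77 on the TPM scale, TJP1 and CLDN15 sit near the dashed lines, and OCLN shows the largest gap between the measures.

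**Figure D3:**
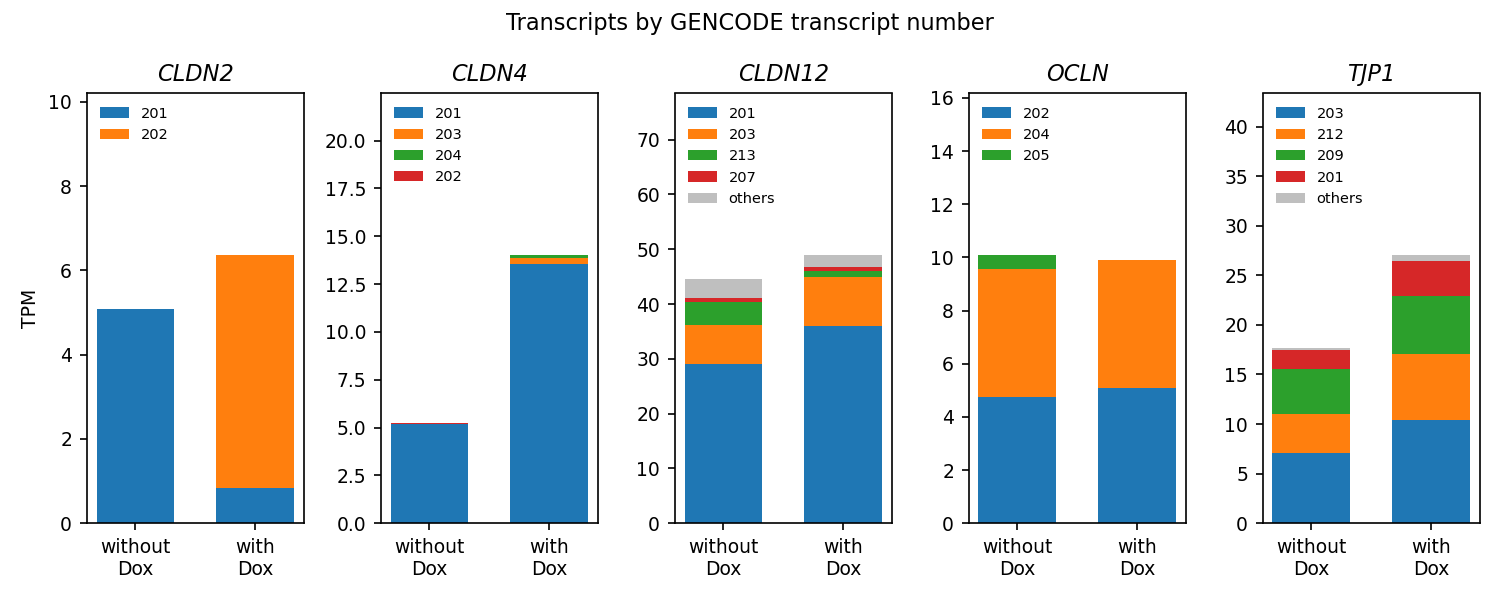
TPM of each transcript (stacked bars from 0, GENCODE transcript numbers as in the keys) of CLDN2, CLDN4, CLDN12, OCLN and TJP1 in both libraries; each panel has its own axis. CLDN2 is wholly on 1 transcript without Dox and at 86.9% on another with Dox, whereas CLDN4 keeps its main transcript and TJP1 is higher on every large one.

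In order of level without Dox, CLDN12 was followed by TJP1, CLDN1, OCLN, CLDN4, CLDN2, CLDN15 and CLDN6. The counting intervals of neighbours overlapped among the last 4, and not among the first 4 or between OCLN and CLDN4. With Dox the order was CLDN12, TJP1, CLDN4, OCLN, CLDN1, CLDN2, CLDN6 and CLDN15. CLDN4 thus took rank 3 in place of rank 5, and CLDN1 rank 5 in place of rank 3. Here the intervals of OCLN and CLDN1 overlapped slightly, as did those of CLDN6 and CLDN15, while CLDN1 and CLDN2 did not overlap. Since the intervals of CLDN12, TJP1 and OCLN are too narrow, their gaps to neighbours are less sure than they look.

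Summed over the 23 claudin genes measured, claudin TPM was 108 uninduced and 109 induced, so the total was nearly equal while its make-up differed. CLDN4 held 4.83% of it without Dox and 12.9% with Dox, and CLDN1 13.2% and 7.30%. CLDN12 held 41.3% and 45.0%. CLDN11, a claudin of myelin and Sertoli cells that is not among the members, held 23.5% and 18.0%, at 25.3 and 19.6 TPM (fragment ratio 0.74, interval 0.66 to 0.83). CLDN7 was not analysed here. Of the 15 other claudins measured, only CLDN11 and CLDN19 (4.27 and 5.35 TPM), a claudin of the kidney, reached a mean TPM of 1, and 6 were listed at 0 in both libraries.

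The other genes of the junction were taken from lists by role. Of 12 other membrane proteins, 7 were compared and none differed by 1.5-fold, with a median log2 fold change of 0.14. CXADR, an adhesion protein and virus receptor of the junction, was at 136 TPM uninduced and 174 induced, and F11R (JAM-A) at 43.9 and 36.2. LSR, a protein of the contacts where 3 cells meet, was looked up after the values were seen and was at 40.6 and 27.2 TPM, a log2 fold change of -0.56 just short of the 1.5-fold line. Of the 10 other scaffolds compared none differed by 1.5-fold, and their median was 0.08. On the fragment measure 2 of them, looked up after the values were seen, lay higher: PATJ had a ratio of 1.61 (1.46 to 1.78) and MAGI2 of 1.51 (1.30 to 1.77), beside log2 fold changes of 0.23 and 0.40. The actin-binding scaffold AFDN was at 94.5 and 113 TPM.

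Among the polarity proteins, which set up the apical side, 1 of 12 compared was at least 1.5-fold higher and none lower, with a median of 0.14. That gene was PARD6B, a subunit of the Par complex, at 7.70 and 12.1 TPM, also on the 1.5-fold line (0.59). PARD3 was at 55.4 and 64.7 TPM and the kinase PRKCZ at 48.5 and 41.7. PALS1, looked up after the values were seen, passed 1.5-fold on the fragment measure only. Its ratio was 1.57 (1.30 to 1.91), beside a log2 fold change of 0.43. LIN7C, also looked up later, lay lower at 0.92 (0.86 to 0.97). Of 14 signalling and traffic genes, 2 were at least 1.5-fold higher and none lower, with a median of 0.18. Beside both lists, 5.32% of all genes compared were higher and 3.90% lower by that much. RAB3B, a GTPase of vesicle traffic, was at 2.41 and 5.71 TPM (fragment ratio 2.31, 2.07 to 2.57). ITCH, a ubiquitin ligase, was at 23.6 and 36.4 TPM, but its fragment ratio was 1.33 (1.24 to 1.43). Over these 5 lists together, 32 of 45 genes compared were above their value without Dox, as were 6135 of all 11582 genes, and the median was 0.14 beside 0.02 for all genes. At least 1.5-fold higher were 3 of the 45, as were 616 of all 11582 genes, and 0 were lower by that much.

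Of 8 adherens junction genes, 7 desmosome genes and 2 gap junction genes compared, none differed by 1.5-fold on the TPM plus 1 scale. Their medians were 0.12, 0.07 and -0.01. The adherens junction genes CDH1 (E-cadherin) and VCL were looked up later. CDH1 passed 1.5-fold on the lower side on the fragment measure only. Its ratio was 0.66 (0.55 to 0.79), beside a log2 fold change of -0.39. VCL lay on the higher side at 1.39 (1.33 to 1.46), short of 1.5-fold. CTNNB1 (beta-catenin) was at 249.6 and 255.1 TPM, the desmosomal plaque gene DSP (desmoplakin) at 165 and 202, and GJB1, the main connexin of hepatocytes, at 91.0 and 81.9. The members CLDN4, CLDN1, CLDN15 and TJP1 were further from 0 than each of these 17 genes on the TPM plus 1 scale, and CLDN2, CLDN6, CLDN12 and OCLN were not.

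**Figure D4:**
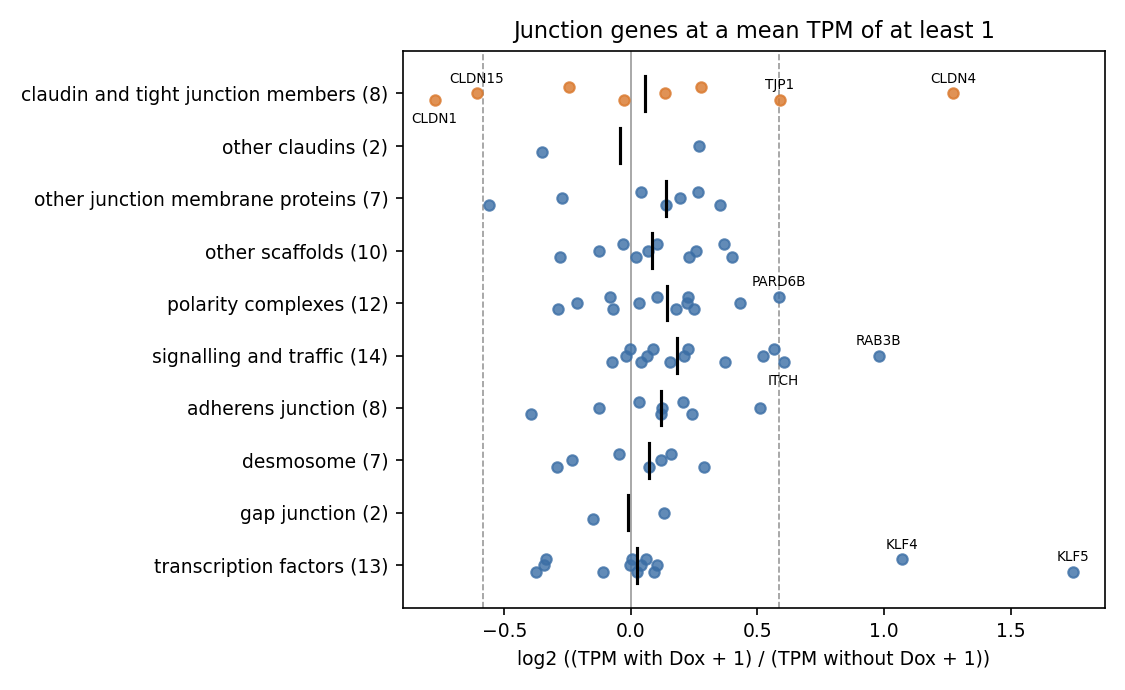
Log2 fold change on the TPM plus 1 scale of every gene compared (points) in the members (orange) and the lists of junction genes and transcription factors (blue; cell type markers are not drawn), with the number compared in brackets, medians as black bars and a fold of 1.5 as dashed lines. CLDN4 lies at 1.27, and among the lists drawn in blue PARD6B, ITCH, RAB3B, KLF4 and KLF5 pass a dashed line.

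Of 20 transcription factors known to act on claudin genes, 13 were compared, with a median of 0.02. KLF5 and KLF4, zinc-finger factors of epithelia, were at least 1.5-fold higher and none was lower by that much, beside 5.32% higher and 3.90% lower over all genes compared. KLF4 reached the filter only through its level with Dox. KLF5 was at 1.66 TPM uninduced and 7.92 induced (fragment ratio 4.74, 3.66 to 6.22), and KLF4 at 0.29 and 1.72 (5.50, 2.61 to 13.3). HNF4A, the hepatocyte nuclear receptor, was at 81.8 and 64.5 TPM and FOXA1 at 30.9 in both libraries. Of the repressors of epithelial genes, looked up after the values were seen, SNAI1 was at 2.44 and 2.43 TPM and ZEB1 at 13.7 and 14.8. The fragment ratio of ZEB1 was 0.79 (0.73 to 0.87), opposite in direction to its TPM. GRHL2, an activator of CLDN4 in other epithelia, was listed at 0 in both. No link of these levels to the claudins was tested.

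Promoter sequence was taken from the RefSeq table (GRCh38.p14), which matched 9 of the 10 members with 16 start sites; CLDN9 had no entry. The 250 bases before each start were searched on both strands for 6 motifs: TGANTCA (AP-1), GGGCGG (GC box), CAGGTG (E-box of SNAI and ZEB factors), GGAATG (TEAD), AACCNGTT (GRHL) and GGGTGNGG (KLF); GC box and KLF matches can overlap. Shown for the 2 genes with the largest differences and for TJP1 are the bases before both the RefSeq start and a transcript's 5′ end. That transcript is the full-length one most abundant over both libraries together. For TJP1 it is ENST00000614355, which without Dox was below ENST00000545208 (3.91 and 4.62 TPM). Matches to any of the 6 motifs are in capitals.
CLDN4, chr7:73830746-73830862, plus strand: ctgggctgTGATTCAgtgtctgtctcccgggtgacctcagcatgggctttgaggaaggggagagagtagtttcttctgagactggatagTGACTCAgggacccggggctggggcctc
CLDN1, chr3:190322476-190322696, minus strand: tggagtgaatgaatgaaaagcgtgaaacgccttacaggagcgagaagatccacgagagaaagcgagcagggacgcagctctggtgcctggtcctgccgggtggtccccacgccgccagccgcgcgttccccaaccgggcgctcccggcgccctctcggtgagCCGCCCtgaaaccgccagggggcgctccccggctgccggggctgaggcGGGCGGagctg
TJP1, chr15:29822504-29822718, minus strand: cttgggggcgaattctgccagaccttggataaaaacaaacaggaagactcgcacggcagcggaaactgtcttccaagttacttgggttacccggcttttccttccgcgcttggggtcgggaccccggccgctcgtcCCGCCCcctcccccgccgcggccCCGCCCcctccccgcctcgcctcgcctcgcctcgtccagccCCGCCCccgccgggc
The 250-base window of CLDN4 held 2 AP-1 matches, both in the stretch shown, which begin 242 and 161 bases before the RefSeq start. Of 35116 windows of 250 bases, 6.57% held at least 1 such match and 0.402% at least 2. CLDN15, which was lower with Dox, also had 1 (219 bases before its start), as did 1 of the CLDN2 windows, that of a start whose transcript was listed at 0. The CLDN4 window also held a GC box, 47 bases before its start and outside the stretch shown. CLDN1 held 2 GC boxes, 88 and 40 bases before its start, and the TJP1 window shown in part held 3, at 114, 91 and 50 bases. Another TJP1 window (29969050 to 29969299) held GC boxes at 102 and 16 bases, an E-box and a KLF match. That at 29821480 to 29821729 held a GC box at 228 bases. At least 1 GC box was in 8 of the 16 member windows and in 42.6% of all windows, and at least 2 were in 24.3% of all windows. The E-box was in 4 of the 16 member windows (17.5% of all), the KLF motif in 5 (16.7%), the TEAD motif in 2 (11.9%) and the GRHL motif in 0 (1.49%). A match describes the letters only and says nothing on binding.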

How the data were processed

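RNA of 2 libraries, 1 without and 1 with Dox, was measured. The authors deposited 1 table of TPM for 184844 Ensembl transcripts. Trimmomatic, Salmon and GRCh38.p13 are named in the submitters' processing notes, with versions and options not given in the sources used here. Salmon divides shared fragments among similar transcripts, which can shift TPM between transcripts and paralogues. GENCODE 29 named 161798 transcripts (93.3% of TPM in each library); the 23046 others, among them any newer transcripts of the members, were left out. TPM were summed per gene, a pseudocount of 1 TPM was used, and genes averaging at least 1 TPM were compared. Since steps in the low TPM of single-transcript genes gave the worth of 1 fragment (77.8% and 81.1% of 650 low values per library within 0.1 of a whole number), fragments were estimated on transcripts of at least 600 nt with a length offset of 300 nt. Intervals are given where such transcripts hold 80% of a gene's TPM; they depend on this estimate. Gene names outside the members follow a fixed rule: the 2 most abundant of each list and up to 4 that pass 1.5-fold; defining markers listed at 0 are added, and others are marked as looked up later. One gene that this rule names is not reported here. Members and lists were chosen with earlier results of these data known. Python 3.11.15, pandas 2.3.3 and scipy 1.17.1 were used; the code was tested on simulated data.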

Additional observations from a re-analysis of the deposited data

How the results depend on the processing

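With 1 library per group, no replicate could be left out. No paired analysis was possible because each group holds 1 library. Of the 56 member values recomputed under 7 alternatives, 51 stayed close, 4 moved further and 1 reversed. Close means a shift no larger than the distance from the middle to an end of the member's log2 fragment ratio interval. The reversal was CLDN2, at -1.73 without all-or-none transcripts, which removes its main transcript with Dox, so it follows from the removal. With a pseudocount of 5 TPM, which shrinks low genes by construction, 1 member was at least 1.5-fold higher (CLDN4) and 0 lower. With the median of all genes set to 0, 1 was higher, since TJP1 was at 0.57. With a minimum mean TPM of 5, which drops CLDN15, 1 was lower. Without all-or-none transcripts 3 were lower (CLDN2 added by that removal). The median over the members, 0.05 as reported, was -0.14 without all-or-none transcripts, -0.05 on estimated fragments and 0.21 with a minimum mean TPM of 5. In these alternatives CLDN4 ranged from 0.90 to 1.41, CLDN1 from -0.84 to -0.58, CLDN15 from -0.78 to -0.32 and TJP1 from 0.50 to 0.64. The low fragment numbers of CLDN6 and CLDN15 limit what could be seen in them.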
